A study of Mus musculus with 46 samples.

Results

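Kcnk9, Trappc9 and Ago2 lie close together in an imprinted cluster on mouse chromosome 15. Their allele balance and level were followed here in the dorsal raphe nucleus, a brainstem nucleus that holds many of the brain's serotonin neurons. The 3 genes were found by gene symbol, mapped from the Ensembl identifiers of the deposited tables (ENSMUSG00000036760 for Kcnk9, ENSMUSG00000047921 for Trappc9, ENSMUSG00000036698 for Ago2), and are 3 of 15499 genes in those tables. RNA-seq libraries came from 46 samples of this nucleus, all from female mice that were hybrids of the C57 and CAST strains. Each library gives 1 count per gene for the C57 allele and 1 for the CAST allele. The samples form 6 groups: cross F1i and cross F1r, each with 7 samples at postnatal day 5 (P5), 7 at postnatal day 15 (P15) and 9 in adults. No treatment, engineered allele or transgene is named in the labels, and the exact age of the adults is not given there.

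Imprinting means that one copy of a gene is silenced or turned down according to the parent it came from. In the mouse brain this cluster is controlled from the promoter of Peg13, a non-coding RNA gene inside an intron of Trappc9 that is read from the paternal copy. Kcnk9, which encodes a two-pore potassium channel that sets the resting potential of neurons, is known to be read from the maternal copy, while Trappc9 and Ago2 are known as genes with a milder maternal bias in brain. Peg13 was not analysed here. In the GENCODE M21 annotation the order along the chromosome is Fam135b, Kcnk9, Trappc9, Chrac1, Ago2 and Ptk2. The 3 members are on the minus strand, Peg13 lies within the span of Trappc9 on the same strand with 0 exons overlapping those of Trappc9, and Chrac1 runs on the plus strand with 1 exon overlapping exons of Ago2.

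Total counts per library ran from 3692778 to 13085952. Which strain gave the mother of a cross is not in the labels, so the 2 sides were named by Meg3, a gene known to be read from the maternal copy. In the group means, Meg3 drew between 99.0% and 99.3% of its counts from CAST in F1i and between 0.142% and 0.350% in F1r. The "Meg3 side" below is therefore the CAST allele in F1i and the C57 allele in F1r. The other genes listed as references for imprinting fell on the side they are known for: by edgeR's quasi-likelihood test, the maternally expressed reference genes tested, with Meg3 left out, were all biased to the Meg3 side (8 of 8, 7 of 7 and 6 of 6 at P5, P15 and adult), and the paternally expressed reference genes tested all to the other (11 of 11, 12 of 12 and 12 of 12). These lists were chosen with earlier results of these data known. They leave out Igf2 and Nespas, whose counts lay mainly on the Meg3 side. Nespas is known to be read from the paternal copy, and so is Igf2 in most tissues, so both lay opposite to that side. Markers of serotonergic neurons (Tph2, Slc6a4, Fev, Ddc) were detected at every age, with a summed level of 351 to 538 CPM (counts scaled to 1000000 per library) at P5, 870 to 1465 at P15 and 1008 to 1441 in adults. The cerebellar granule neuron markers Zic1 and Cbln3 summed to at most 3.59 CPM.

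All 3 members were read mainly from the Meg3 side, in both crosses and at every age, but to different degrees. Kcnk9 was read almost only from that side, while Ago2 and Trappc9 kept a clear contribution from the other allele. The parental effect is the log2 ratio of the Meg3-side allele over the other allele, averaged over the crosses so that differences between the strains cancel. It passed an adjusted p of 0.05 for 3 of 3 members at each age, where the share of all genes tested that passed was 2.71% of 12070 (P5), 0.742% of 11996 (P15) and 2.71% of 12675 (adult).

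**Figure D1:**
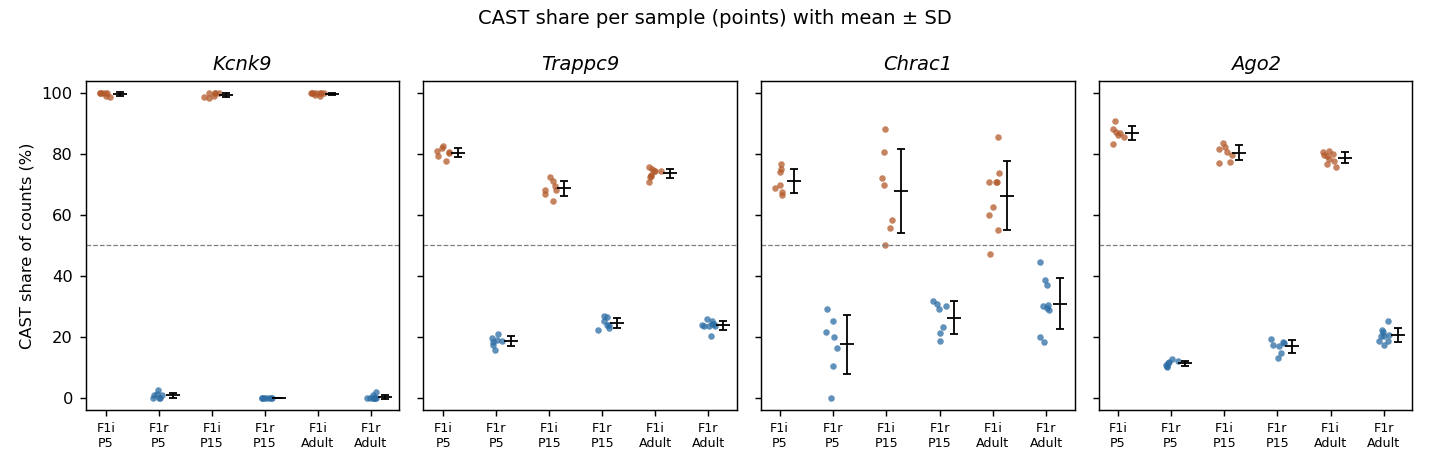
Share of each gene's counts that came from the CAST allele (y axis, percent) in the 6 groups of cross and age (x axis). Points are samples, bars are the mean and SD, and the dashed line marks equal reading of both alleles. The F1i samples lie above and the F1r samples below that line in each panel, except that the lowest Chrac1 samples of F1i were at 50.0% at P15 and 47.2% in adults.

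Kcnk9 had the most one-sided reading. At P5 the CAST share in F1i had a lowest value of 98.6%, a median of 100% and a highest of 100% over 7 samples, and in F1r a lowest of 0%, a median of 0.820% and a highest of 2.33%. At P15 the F1i samples ran from 98.4% to 100% (median 100%), and each of the 7 F1r samples was at 0%. In adults the F1i samples ran from 99.2% to 100% (median 100%) and the F1r samples from 0% to 1.68% (median 0%). The crosses did not overlap at any age, and they lay at opposite ends of the scale.

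The few counts from the other side of Kcnk9 can be listed in full. Summed over samples, the disfavoured allele gave 3 of 862 counts in F1i at P5, a share of 0.348% with an exact 95% interval of 0.0718% to 1.01%. It gave 7 of 826 counts in F1r at P5, or 0.847% (0.341% to 1.74%). At P15 the numbers were 3 of 448 in F1i, or 0.670% (0.138% to 1.94%), and 0 of 368 in F1r, where 3 counts would be a share of 0.815% and the exact interval reaches 0.997%. In adults they were 2 of 1138 in F1i, or 0.176% (0.0213% to 0.633%), and 4 of 1175 in F1r, or 0.340% (0.0928% to 0.869%). These intervals cover counting error only. No count from that allele was seen in 5 of 7 and 3 of 7 samples at P5 (F1i and F1r), in 4 of 7 and 7 of 7 at P15, and in 7 of 9 and 7 of 9 in adults, with 25 to 203 Kcnk9 counts per sample. Counts assigned to the disfavoured allele of Kcnk9 were thus between 0% and 0.847% of its counts in each of the 6 groups, with exact limits up to 1.94%. How reads were assigned to alleles is not given in the sources used here. Reading of that allele and wrongly assigned reads therefore cannot be told apart.

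The difference between the crosses in mean CAST share of Kcnk9 was beyond the spread of samples at P5 (99.7% ± 0.572 against 0.765% ± 0.867, SD, n = 7 each, exact two-sided permutation p = 0.000583). In adults the means were 99.8% ± 0.317 and 0.266% ± 0.579 (SD, n = 9 each, exact two-sided permutation p = 4.11e-05). The mean was 99.4% ± 0.719 in F1i at P15, against 0% in F1r (n = 7 each, exact permutation p = 0.000583). These p-values are the smallest that groups of this size can give. In edgeR's fit across all genes the adjusted p of the parental effect was 3.5e-38, 3.1e-28 and 1.2e-32 (P5, P15, adult). No fold is given for Kcnk9, because its size would rest on how a count of 0 is treated.

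Ago2 encodes an Argonaute protein, the part of the RNA-induced silencing complex that binds small RNAs and can cut their targets. Its CAST share at P5 ran from 83.4% to 90.9% (median 86.9%) in F1i and from 9.95% to 12.5% (median 11.5%) in F1r. At P15 it ran from 77.2% to 83.7% (median 80.8%) in F1i and from 12.996% to 19.2% (median 17.3%) in F1r. In adults the F1i samples lay between 75.7% and 81.0% (median 79.2%) and the F1r samples between 17.3% and 25.1% (median 20.2%). The crosses never overlapped, and the distance between them was smaller at P15 and in adults than at P5.

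Trappc9 encodes a subunit of TRAPPII, a tethering complex of vesicle transport, and loss of the human gene is known as a cause of intellectual disability with a small head. Its CAST share at P5 ran from 77.7% to 82.5% (median 80.7%) in F1i and from 15.8% to 21.0% (median 18.7%) in F1r. At P15 it ran from 64.5% to 72.4% (median 68.3%) in F1i and from 22.1% to 26.8% (median 23.9%) in F1r. In adults the F1i samples lay between 70.8% and 75.9% (median 74.3%) and the F1r samples between 20.3% and 25.7% (median 23.98%). The crosses did not overlap here either.

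For both genes the exact two-sided permutation p of the cross difference in CAST share was 0.000583 at P5 and P15 (n = 7 against 7) and 4.11e-05 in adults (n = 9 against 9). The parental effect of Ago2 was 2.86 ± 0.04 (log2, SE) at P5, and then 2.18 ± 0.05 at P15 and 1.92 ± 0.04 in the adult, with edgeR adjusted p of 1.8e-46, 3.8e-36 and 7.7e-33. That of Trappc9 was 2.10 ± 0.03, 1.39 ± 0.04 and 1.59 ± 0.02 at the same ages, with adjusted p of 3.7e-46, 8.3e-33 and 2.4e-36.

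The order of the members was Kcnk9, then Ago2, then Trappc9 at every age. Taken over both crosses, the share of counts on the Meg3 side was 99.5% ± 0.742 (SD, n = 14) for Kcnk9, 87.8% ± 1.94 for Ago2 and 81.0% ± 1.64 for Trappc9 at P5. At P15 the shares were 99.7% ± 0.568, 81.8% ± 2.64 and 72.1% ± 4.14 (n = 14), and in adults 99.8% ± 0.456, 79.1% ± 2.05 and 74.97% ± 1.98 (n = 18). Neighbours in this order were compared within each sample, by sign flips. Kcnk9 exceeded Ago2 by 11.6 ± 2.09 percentage points (SD) at P5, 17.9 ± 2.55 at P15 and 20.6 ± 2.20 in adults, and it was the higher in 14 of 14, 14 of 14 and 18 of 18 samples. Ago2 exceeded Trappc9 by 6.84 ± 1.68 points at P5 (14 of 14 samples), 9.71 ± 4.03 at P15 (14 of 14) and 4.17 ± 3.11 in adults (16 of 18). All 9 comparisons of 3 pairs at 3 ages passed a permutation test after Benjamini-Hochberg adjustment, with adjusted p of 0.000137 to 0.00014. The gap between Ago2 and Trappc9 in adults was the one with exceptions, in 2 samples of 18.

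**Figure D2:**
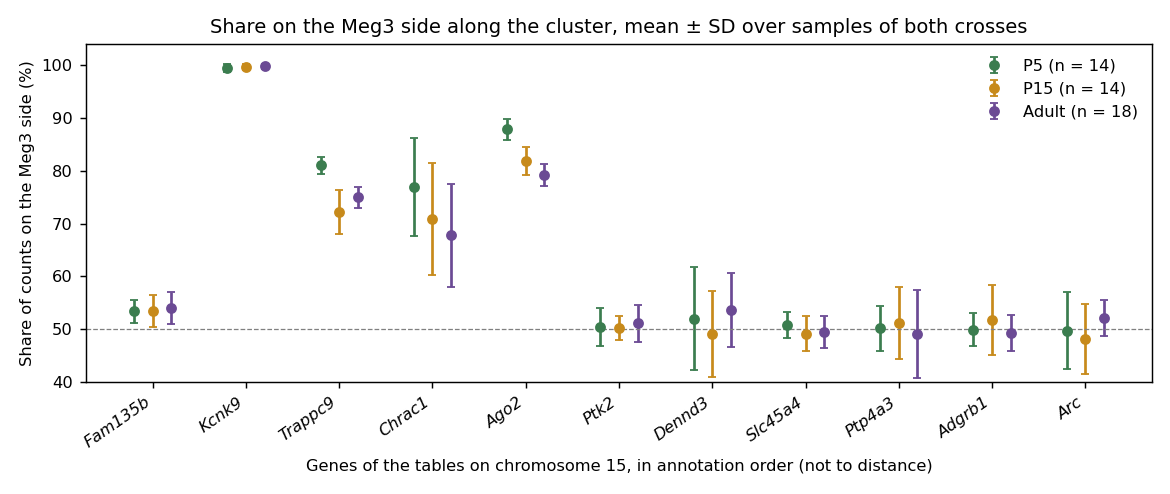
Share of counts on the Meg3 side (y axis, percent, cut below the line of equal reading) for the genes of the tables from Fam135b to Arc in their order on chromosome 15 (x axis, not to distance). Points and bars are the mean and SD over the samples of both crosses at P5 (n = 14), P15 (n = 14) and in adults (n = 18); Kcnk9, Trappc9, Chrac1 and Ago2 lie at 67.8% or more, Fam135b at 53.4% to 54.0%, and the genes beyond Ago2 near the dashed line of equal reading.

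The bias was strongest in the genes from Kcnk9 to Ago2, and the genes on both sides had far less or were not called. Within that stretch it was largest for Kcnk9 and smallest for Chrac1 at each age. Of 9 neighbouring genes tested, 2 (Chrac1 and Fam135b) passed the test of the parental effect at each age, both towards the Meg3 side. The median over the 9 was 0.02, 0.08 and 0.08 on the log2 scale (P5, P15, adult), against 0.00 over all genes tested at each age. Chrac1, which encodes a subunit of the CHRAC chromatin remodelling complex, came to 1.74 ± 0.16, 1.25 ± 0.17 and 1.05 ± 0.14 in the same test and order (adjusted p = 5.0e-12, 5.4e-07 and 1.2e-06). Its mean CAST share was 71.3% ± 3.95 in F1i and 17.5% ± 9.77 in F1r at P5 (SD), 67.9% ± 13.9 and 26.3% ± 5.31 at P15, and 66.3% ± 11.4 and 30.8% ± 8.36 in adults, without overlap between the crosses. Each group held only 152 to 301 Chrac1 counts in all. Because Chrac1 overlaps Ago2 and the sources used here do not say whether strand was used in counting, reads of the 2 genes cannot be told apart where they overlap.

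Fam135b, on the far side of Kcnk9, had a share on the Meg3 side of 53.4% ± 2.20, 53.5% ± 3.05 and 54.0% ± 3.06 (P5, P15, adult). Its parental effect was 0.20 ± 0.05, 0.19 ± 0.05 and 0.24 ± 0.04, with edgeR adjusted p of 0.0100, 0.0479 and 4.9e-05. With DESeq2 in its place, Fam135b passed in adults and not at P5 or P15, and with limma it passed at P5 and in adults and not at P15. Ptk2, which encodes focal adhesion kinase and follows Ago2, had effects of 0.02, 0.02 and 0.08 ± 0.04 and did not pass at any age (adjusted p = 0.984, 1 and 0.685). Dennd3 stood at 0.10, -0.03 and 0.21 ± 0.07 and did not pass either (adjusted p = 0.880, 1 and 0.144).

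Genes with related functions elsewhere in the genome gave few or no calls, where 2.71%, 0.742% and 2.71% of all genes tested were called (P5, P15, adult). Lists this short would hold few calls at those shares, so the counts set no family apart. Of 12 other TRAPP genes tested, 1 passed at P5 (Trappc2, 0.42 ± 0.12, adjusted p = 0.0431), 0 at P15 and 1 in adults (Trappc11, 0.08 ± 0.02, adjusted p = 0.0437). Neither passed with DESeq2 or with limma, and an unadjusted p under 0.05 was reached by 1, 0 and 3 of the 12. Trappc2 is an X-linked gene, and the part of X inactivation in its value was not tested. Over all genes, the calls at P5 were 283 towards the Meg3 side and 44 towards the other, and in adults 287 and 57. Among 6 other two-pore potassium channels, edgeR called 0 at each age, as did DESeq2 and limma, and 0 reached an unadjusted p under 0.05. For genes of RNA silencing (Argonautes, Dicer1, Drosha, the Tnrc6 genes and partners) edgeR, DESeq2 and limma each called 0 of 13 (P5), 0 of 12 (P15) and 0 of 12 (adult), and 0, 0 and 1 of them reached an unadjusted p under 0.05.

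The allele balance of Ago2 and Trappc9 changed with age. The parental effect of Ago2 fell by 0.68 ± 0.08 (log2, SE) from P5 to P15 and by 0.93 ± 0.06 from P5 to adult (adjusted p = 1.2e-08 and 5.6e-19). Its further change from P15 to adult, -0.26 ± 0.07, did not pass (adjusted p = 0.294). Trappc9 fell by 0.71 ± 0.06 from P5 to P15 and by 0.50 ± 0.04 from P5 to adult (adjusted p = 1.5e-15 and 3.4e-14), and its difference of 0.21 ± 0.05 from P15 to adult did not pass (adjusted p = 0.0540). These calls were for 2 of 3 members from P5 to P15, where 0.153% of 12430 genes were called, and again 2 of 3 from P5 to adult, where 0.241% were called. From P15 to adult 0 of 3 members passed, where 0.129% of genes did. An unadjusted p under 0.05 was reached there by 2 members, and limma called 1 (Kcnk9, in a value that turned sign and rests on the count added to an allele near 0).

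For Kcnk9 no change of the parental effect was detectable at this depth. The adjusted p was 0.990, 0.986 and 1 (P5 to P15, P15 to adult and P5 to adult); the fitted differences are not given, because their size rests on how a count of 0 is treated. The exact intervals given above for its disfavoured allele overlap between ages within each cross.

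**Figure D3:**
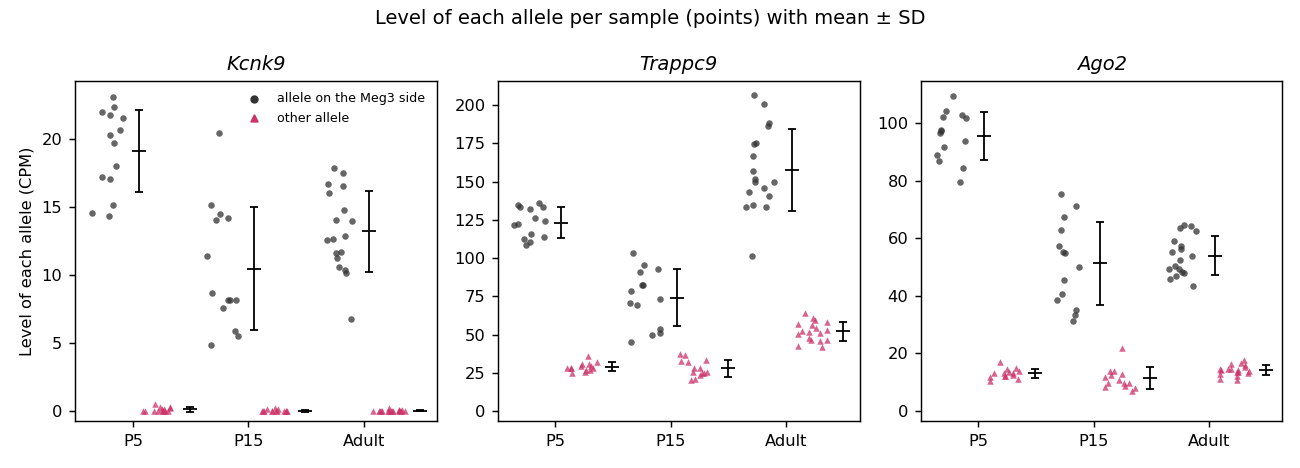
Level of the allele on the Meg3 side (dots) and of the other allele (triangles) at each age, in TMM-scaled CPM (y axis, a separate linear scale per gene), with mean and SD over the samples of both crosses (n = 14, 14 and 18). The Meg3-side allele of Ago2 dropped from a mean of 95.5 to 53.9 CPM between P5 and adult while its other allele stayed between 11.4 and 14.2 CPM, and both alleles of Trappc9 were highest in adults.

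Seen allele by allele, the shifts of the 2 genes from P5 to adult took different forms. From P5 to P15, a span not fitted by allele, the mean of the Meg3-side allele fell in both genes. The mean of the other allele went from 13.1 to 11.4 CPM for Ago2 and from 28.8 to 28.0 for Trappc9. The Meg3-side allele of Ago2 had a mean of 95.5 ± 8.48, 51.3 ± 14.5 and 53.9 ± 6.83 CPM (SD, n = 14, 14 and 18 at P5, P15 and adult), while the other allele had 13.1 ± 1.65, 11.4 ± 3.77 and 14.2 ± 1.81. From P5 to adult the Meg3-side allele fell by 0.83 ± 0.08 (log2, SE, adjusted p = 2.5e-13), and the other allele differed by 0.11 ± 0.09 (adjusted p = 0.275). For Trappc9 the Meg3-side allele had 123 ± 9.89, 74.2 ± 18.6 and 158 ± 26.9 CPM and the other 28.8 ± 2.90, 28.0 ± 5.54 and 52.1 ± 6.32. Both of its alleles rose from P5 to adult, the Meg3-side allele by 0.35 ± 0.07 (adjusted p = 1.7e-05) and the other by 0.85 ± 0.07 (adjusted p = 4.7e-17). The Meg3-side allele of Kcnk9 had 19.1 ± 3.03, 10.5 ± 4.55 and 13.2 ± 2.98 CPM and fell by 0.55 ± 0.12 from P5 to adult (adjusted p = 8.5e-05). In these 2 fits, which were added after the data were seen, 79.5% of 12430 genes passed on the Meg3 side and 78.9% on the other, so a call by itself sets no gene apart.

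A difference between the strains' alleles was small beside the parental effect. It was called for 1 of 3 members at each age, where 58.4% of genes were called at P5, 58.4% at P15 and 67.8% in adults. The CAST allele of Trappc9 was lower than the C57 allele by -0.23 ± 0.04 (log2, SE) at P15 and -0.10 ± 0.02 in adults (adjusted p = 1.8e-06 and 0.00056), and the value at P5 was -0.04 ± 0.03 (adjusted p = 0.325). That of Ago2 was -0.12 ± 0.05 at P5 (adjusted p = 0.0331, a call lost with DESeq2, adjusted p = 0.252, and with limma, 0.113), -0.12 ± 0.06 at P15 (adjusted p = 0.0598) and -0.03 ± 0.04 in adults (adjusted p = 0.544). The strain effect of Kcnk9 passed at no age (adjusted p = 0.263, 0.0917 and 0.498). Reads were aligned to mm9, a genome of the C57 strain, and the part of alignment in these small differences was not tested.

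The strain effect of Trappc9 changed between ages, by -0.19 ± 0.06 from P5 to P15 (adjusted p = 0.0112) and by 0.14 ± 0.05 from P15 to adult (adjusted p = 0.0476). Each was a call for 1 of 3 members, where 18.7% and 15.5% of 12430 genes were called. From P5 to adult the difference was -0.06 (adjusted p = 0.383), and 0 of 3 members passed by edgeR or limma or reached an unadjusted p under 0.05, where 29.6% of genes were called by edgeR.

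**Figure D4:**
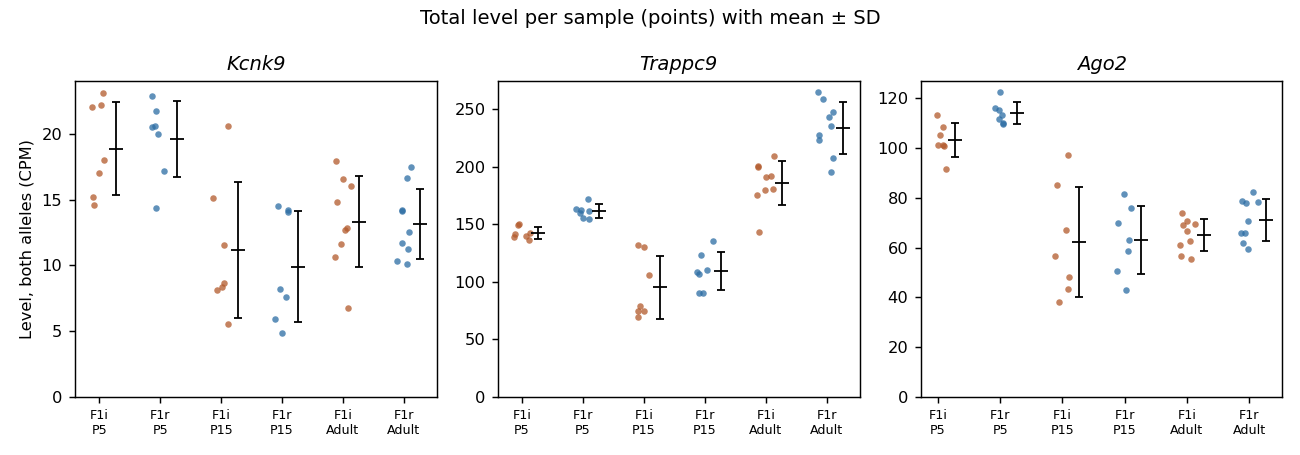
Summed level of both alleles in CPM (y axis from 0, a separate scale per gene) in the 6 groups of cross and age (x axis), with samples as points and bars for mean and SD. Kcnk9 and Ago2 were highest at P5, Trappc9 in adults, and the F1r samples of Trappc9 lay above all F1i samples at P5.

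In summed level the members all fell from P5 to P15, and only Trappc9 stood above its P5 level in adults. Counts hold only the reads that were assigned to an allele and are not scaled to gene length, so levels are compared between samples and not between genes. Kcnk9 at P5 ran from 14.6 to 23.1 CPM (median 18.0) in F1i and from 14.4 to 22.9 (median 20.5) in F1r. At P15 it ran from 5.51 to 20.6 (median 8.66) and from 4.83 to 14.5 (median 8.20), and in adults from 6.75 to 17.9 (median 12.9) and from 10.1 to 17.5 (median 12.6). It was lower by -0.89 ± 0.15 (log2, SE) at P15 than at P5 and by -0.57 ± 0.13 in adults than at P5 (adjusted p = 5.4e-07 and 8.7e-05). It rose by 0.32 ± 0.14 from P15 to adult (adjusted p = 0.0380), a call lost without TMM scaling (0.27, adjusted p = 0.0795).

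Ago2 at P5 ran from 91.5 to 113 CPM (median 101) in F1i and from 110 to 123 (median 113) in F1r. At P15 it spread from 38.2 to 97.1 (median 56.5) and from 42.9 to 81.3 (median 63.1), and in adults from 55.4 to 73.8 (median 66.6) and from 59.3 to 82.5 (median 70.7). Its level fell by 0.81 ± 0.09 from P5 to P15 and by 0.69 ± 0.08 from P5 to adult (adjusted p = 2.0e-11 and 1.1e-10), and the difference of 0.12 ± 0.09 from P15 to adult did not pass (adjusted p = 0.212).

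Trappc9 also fell at P15 but differed from the other members in adults. At P5 it ran from 136 to 150 CPM (median 141) in F1i and from 155 to 172 (median 162) in F1r, at P15 from 69.6 to 132 (median 79.2) and from 90.2 to 136 (median 108), and in adults from 143 to 210 (median 191) and from 196 to 265 (median 236). It fell by 0.59 ± 0.07 from P5 to P15, then rose by 1.03 ± 0.07 from P15 to adult and stood 0.44 ± 0.07 above P5 in adults (adjusted p = 6.0e-10, 4.4e-18 and 8.3e-08). With age 83.4% of 13637 genes were called from P5 to P15 (3 of 3 members, all lower), 74.7% from P15 to adult (2 of 3 members, both higher) and 82.1% from P5 to adult (1 member higher, 2 lower).

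Summed levels of cell type markers also differed between the ages. Genes of mature oligodendrocytes, the cells that make myelin, rose and then fell: from P5 to P15 Mobp rose by 3.998 ± 0.08, Mbp by 3.34 ± 0.07 and Mag by 2.55 ± 0.07 (log2, SE), and from P15 to adult they fell by 0.77 ± 0.06, 1.44 ± 0.06 and 1.01 ± 0.06. The sum of 4 neuron markers had medians of 2322 CPM (2196 to 2602) at P5, then 1567 (1350 to 1770) at P15 and 1795 (1618 to 1884) in the adult. Its members did not move as one: from P5 to P15 Tubb3, a gene of young neurons, fell by 1.23 ± 0.05 and Rbfox3 by 0.92 ± 0.10, while Syt1 rose by 0.17 ± 0.06 and Snap25 by 1.36 ± 0.20. The sum of 5 astrocyte markers had medians of 1821, 2744 and 2139 CPM in the same order, that of 4 oligodendrocyte precursor markers 722, 552 and 349, that of 3 microglia markers 155, 253 and 187, and that of 4 endothelial markers 109, 98.4 and 59.2. No marker of these lists was at 0 at any age. The part of these markers' cell types in the level and allele shifts of the members was not tested, and in whole tissue fewer cells of a type and less RNA per cell cannot be told apart.

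For the other genes of each pathway, the counts stand beside 83.4% of all genes called from P5 to P15 and 82.1% from P5 to adult. Of 12 other TRAPP genes, 10 rose and 2 fell (Trappc5 and Trappc10) from P5 to P15, with a median of 0.36 against 0.02 over all genes, and 8 rose and 3 fell from P5 to adult, with a median of 0.28 against 0.00. Trappc13 rose by 1.09 ± 0.05, Trappc12 by 0.62 ± 0.04, Trappc2l by 0.54 ± 0.05 and Trappc6b by 0.47 ± 0.05 from P5 to adult. Trappc10, which is with Trappc9 one of the subunits that define TRAPPII, fell by 0.16 ± 0.04 over that span, whereas Trappc9 rose.

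Of 7 other two-pore channels, 3 rose and 4 fell from P5 to P15 (median -0.61 against 0.02 over all genes), and 4 rose and 2 fell from P5 to adult (median 0.44 against 0.00). Kcnk1 rose by 1.92 ± 0.06 and Kcnk13 by 1.58 ± 0.09 from P5 to adult, and Kcnk4 fell by 1.03 ± 0.09 and Kcnk10 by 0.59 ± 0.07. Kcnk3, which encodes the acid-sensitive channel TASK-1, the closest relative of the channel of Kcnk9, rose by 0.46 ± 0.10 from P5 to adult. Of 13 other genes of RNA silencing, 3 rose and 6 fell from P5 to adult (median -0.10 against 0.00), so that 9 of 13 were called. Tnrc6c, a partner of Argonaute in repression, fell by 0.99 ± 0.05 and Dicer1, the enzyme that cuts microRNA precursors, by 0.82 ± 0.04, while Ran rose by 0.69 ± 0.05 and Ago3 by 0.62 ± 0.05.

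The summed level of Trappc9 depended on the cross at P5. It was lower in F1i than in F1r by -0.17 ± 0.03 (log2, SE, adjusted p = 0.00079), with every F1r sample above every F1i sample, where 1.17% of 12919 genes were called (1 of 3 members). The difference was -0.21 ± 0.16 at P15 (adjusted p = 1) and -0.32 ± 0.07 in adults (adjusted p = 0.0598). At P15 and in adults 0 of 3 members passed by edgeR, where 0.0467% of 12850 and 0.111% of 13516 genes did. An unadjusted p under 0.05 was reached by 0 and 1 of the 3, and DESeq2 called 0 at P15 and Trappc9 in adults (adjusted p = 0.0034). The adult difference of Trappc9 also passed with the second number of the adult labels as a replicate block (-0.32 ± 0.05, adjusted p = 0.00043) and with counts summed over the first (-0.33 ± 0.04, adjusted p = 0.00023). These settings called more of the 13516 genes: 53 with DESeq2, 77 with the block and 304 with summed counts, against 15 in the main fit. Within each second number the F1r samples lay above the F1i samples: 196 to 223 against 143 to 180 CPM for number 1, 227 to 243 against 192 to 201 for number 2, and 248 to 265 against 181 to 210 for number 3 (3 samples each). For Ago2 the difference was -0.14 ± 0.04 at P5 (adjusted p = 0.0685, or 0.0326 without TMM scaling), -0.03 ± 0.20 at P15 and -0.12 ± 0.07 in adults (adjusted p = 1 and 0.635). For Kcnk9 it was -0.06 ± 0.09, 0.15 ± 0.30 and 0.02 ± 0.15 (adjusted p = 0.902, 1 and 0.987). In adults the Meg3-side allele of Trappc9 had a mean of 137 ± 15.05 CPM in F1i, where it is CAST, and 178 ± 18.9 in F1r, where it is C57 (SD, n = 9 each); the other allele had 48.8 ± 5.38 and 55.5 ± 5.56.

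Between samples of the same group, the levels of the members moved together at P15 and in adults. With group means removed, log2 CPM of Kcnk9 and Ago2 had a Pearson r of 0.78 and a Spearman rho of 0.73 over 46 samples (permutation p = 1.0e-05 for both, the smallest the resamples can give, adjusted over 4 relations 2.0e-05). Without the 2 samples farthest from the median of Kcnk9 r was 0.76, and by age it was 0.25, 0.85 and 0.77 (P5, P15, adult). Kcnk9 and Trappc9 had r = 0.71 and rho = 0.64 (permutation p = 3.0e-05 and 7.0e-05, adjusted 4.0e-05 and 9.3e-05), r = 0.62 without 2 samples, and 0.02, 0.74 and 0.79 by age. Ago2 and Trappc9 had r = 0.82 and rho = 0.79 (permutation p = 1.0e-05 for both, adjusted 2.0e-05), r = 0.77 without 2 samples, and -0.06, 0.88 and 0.73 by age. At P5 the 3 relations lay between -0.06 and 0.25, so the pooled values rest on the 2 later ages. The 2 levels of a relation come from the same library, and the part of its composition was not tested.

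The allele shares of Ago2 and Trappc9 did not show such a relation. With group means removed, their shares on the Meg3 side had r = -0.13 (permutation p = 0.450) and rho = -0.12 (permutation p = 0.475) over 46 samples, with the same values after adjustment, and r = -0.05 without 2 samples. By age r was 0.51, -0.25 and -0.40 (P5, P15, adult).

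Across the genome, the genes nearest to each member in CAST share were mostly genes known as imprinted. Likeness was the root mean square difference of the 6 group means, over 11649 genes with enough counts at every age. Kcnk9 was nearest to Nespas (0.407 percentage points), an antisense gene of the Gnas locus on chromosome 2, then to ENSMUSG00000091793 (0.450), a gene with no symbol in the table used, and Meg3 (0.492) on chromosome 12. Nespas is known to be read from the paternal copy, and its counts here lay on the Meg3 side; without knowing whether strand was used, they cannot be told apart from those of overlapping genes on the other strand. Ago2 was nearest to Copg2 (5.58 points) on chromosome 6, ENSMUSG00000090656 (7.29) and Trappc9 (7.38). Trappc9 was nearest to its neighbour Chrac1 (5.70 points), to the growth factor gene Igf2 on chromosome 7 (7.20) and to Ago2 (7.38). For Copg2 the mean CAST share in F1i was 81.0%, 83.4% and 84.8% (P5, P15, adult), and for Ago2 it was 86.9%, 80.4% and 78.8%; whether the 2 courses differ was not tested.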

How the data were processed

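The authors deposited whole-number counts per gene for the C57 and the CAST allele of each library, per the file headers (92 columns of 46 libraries, all matched to a sample). Per the labels' protocols, RNA was prepared with TruSeq and read as single ends of 50 bases; per the submitters' processing notes, Novoalign and mm9 were used. How reads were assigned to alleles, whether strand was used and how reads with several matches were treated is not given in the sources used here. Symbols were matched for 14969 of 15499 genes; 91 genes had no count. Total counts of 3692778 to 13085952 per library set the precision. The labels do not say that each library is a separate animal, so p-values measure the spread between these samples, which may be technical.

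Allele counts were fitted with edgeR 4.0.16 (quasi-likelihood test, R 4.3.3) with 1 column per sample and allele, a term for each sample, and the library total as size, in genes whose summed count averaged at least 20. For the parental effect, log2 CAST over C57 in F1r was subtracted from that in F1i and divided by 2. Summed levels were fitted with TMM scaling and filterByExpr. Adjusted p-values are Benjamini-Hochberg over all genes tested, with a threshold of 0.05. CPM are counts scaled to 1000000 per library, after TMM. Shares were compared with exact permutation tests, and orders and relations with up to 100000 resamples (Python 3.11.15, scipy 1.17.1). Alternatives were DESeq2 1.42.0, limma 3.58.1 on log2 allele ratios with 1 added to each count, other scalings and filters, a term for the replicate number, and adult counts summed over the first of the 2 numbers in their labels. The fits were checked on simulated data. Same-numbered samples of the 2 crosses did not all deviate together, so the fits have no replicate block; adult samples with the same second number did so on average. Named were the 3 members, list genes that passed the parental test, up to 4 of each list by smallest p for age, and the 3 genes nearest to each member; Ptk2, Dennd3, Trappc10, Kcnk3 and the single cell type markers were added after their values were seen. Lists in the tables held 9 of 13 neighbours, 12 of 14 TRAPP genes, 8 of 13 two-pore channels and 13 of 13 silencing genes; the others were not analysed here. The members and lists were chosen with earlier results of these data known. The summed level of the mature oligodendrocyte marker list is not reported here.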

Additional observations from a re-analysis of the deposited data

Results flagged for a closer look

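In 2 of 36 groups of values checked, 1 sample stood apart from the rest of its group by Dixon's test; chance gives about 1 in 20. For Kcnk9 in adult F1r, sample 6_3 had a CAST share of 1.68% of 179 counts, against 0.714% in the next highest. For Trappc9 in adult F1r, sample 7_3 had a CAST share of 20.3% of 2874 counts, against 23.4% in the next lowest.

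The remaining results are differences between ages that passed a test of the difference itself (edgeR, adjusted over all genes). The parental effect of Trappc9 differed by -0.71 from P5 to P15 and by -0.50 from P5 to adult, and that of Ago2 by -0.68 and -0.93. For both genes the mean CAST shares of both crosses lay nearer to equal reading at P15 and in adults than at P5. The strain effect of Trappc9 differed by -0.19 from P5 to P15 and by 0.14 from P15 to adult.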

How the results depend on the processing

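For the members, 218 of 227 alternative values kept their direction and their side of the threshold, among them 56 of 56 for the parental effect. The strain effect of Ago2 at P5 no longer passed with limma (-0.12, adjusted p = 0.113) or DESeq2 (-0.12, adjusted p = 0.252), and at P15 it passed with the replicate block (-0.13, adjusted p = 0.0300). The cross effect of Ago2 at P5 passed without TMM scaling (-0.15, adjusted p = 0.0326). The cross effect of Trappc9 in adults passed with adult counts summed over the first label number (-0.33, adjusted p = 0.00023), with the replicate block (-0.32, adjusted p = 0.00043) and with DESeq2 (-0.32, adjusted p = 0.0034). The rise of Kcnk9 from P15 to adult did not pass without TMM scaling (0.27, adjusted p = 0.0795). The change of its parental effect from P15 to adult turned from -0.07 to 1.16 with limma (adjusted p = 0.0054), where the added count sets the ratio when an allele is near 0.

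Over all genes, 63 of 72 counts of calls stayed within 1.5 times. The parental effect was called for 327 genes at P5 (100 with limma, 120 with DESeq2) and 344 in adults (92 and 138). The cross effect in adults was called for 15 genes (304 with summed counts, 77 with the replicate block, 53 with DESeq2). The change of the parental effect was called for 19 genes from P5 to P15 (37 with limma) and 16 from P15 to adult (27). The causes were not tested. TMM scaling of each allele column turned the split of higher and lower strain changes from 1126 and 1199 to 842 and 1663 (P5 to P15), and from 928 and 995 to 1430 and 730 (P15 to adult). Without TMM scaling of totals, the split of the cross effect at P5 went from 64 and 87 to 48 and 110. Same-numbered samples of the 2 crosses did not deviate together throughout (r from -0.083 to 0.079 at P5, -0.412 to 0.75 at P15). Adult samples with the same second number in the 2 crosses had mean r of 0.395, 0.19 and 0.252, with single pairs down to -0.473. Adult libraries with the same first label number had a mean r of -0.341 to -0.215 within a cross. Kcnk9 and Chrac1 are limited most by depth, with 25 to 203 and 10 to 49 counts per sample.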
